A study of Mus musculus with 6 samples.

Results

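Expression of 9 genes of cell junctions and simple epithelial keratins was followed in whole mouse aorta from control mice and from mice with a knockout of Ogt in smooth muscle cells. Ogt encodes the enzyme that attaches N-acetylglucosamine to serines and threonines of proteins in nucleus and cytoplasm. The 9 are the scaffold genes Tjp1 and Tjp3, the membrane protein genes Ocln, F11r, Cldn1, Cldn5 and Cldn15, and the keratin genes Krt8 and Krt18. Each was taken by its symbol from a table of 55487 genes, and each symbol had 1 gene identifier. The 9 genes were chosen by earlier results of the knockout against control comparison in these same libraries, that is by their counts and fold changes. Their group differences are therefore a description, and no statement about junctions in general is drawn from them. Their p-values are not printed, and whether a gene passed the threshold of a whole-table fit is given as a description too.

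The control group was aorta of the genotype given as LoxP, the name of the sites at which Cre recombinase cuts (3 libraries). The knockout group was aorta from mice with an Ogt knockout specific to smooth muscle cells (3 libraries). Sample titles carry the name SM22 in both groups, another name of transgelin, an actin-binding protein of smooth muscle. The labels do not name the Cre line or its promoter, nor the mice's age, sex or strain, nor the number of mice behind a library. Endothelial cells, fibroblasts, fat cells and nerve in the vessel wall keep an intact Ogt gene if the deletion is restricted as the label says, and they contribute RNA. Where a level differs, fewer cells of a type and less RNA per cell cannot be told apart in such bulk samples.

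Tight junctions seal the space between neighbouring cells. Claudins form the strands that set which ions and molecules pass, occludin and junctional adhesion molecules lie in the same membrane contacts, and zonula occludens (ZO) proteins tie them to actin. In an artery these contacts are best known from the endothelium, where claudin 5 is the main claudin, while ZO-1 is found in many cell types, smooth muscle among them. Keratin 8 and keratin 18 are the type II and type I partners of the intermediate filaments of simple epithelia, and filaments form from pairs of the 2 types.

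The libraries held between 3038782 counts (control replicate 2) and 18218385 counts (knockout replicate 3). Control replicate 2 stood apart, with 10.2% of counts from mitochondrial ribosomal RNA, where the other 5 libraries had 0.491% to 0.823%. Expression below is given as CPM, counts scaled to library size, with trimmed mean of M values (TMM) scaling, and fold changes are knockout minus control on the log2 scale, from edgeR's quasi-likelihood fit over 16139 tested genes. Ogt was lower in each knockout library (70.9 to 93.3 CPM) than in each control library (149.97 to 183.2 CPM). Among the smooth muscle, endothelial, fibroblast, adipocyte and leukocyte markers, every listed gene had counts in at least 1 library. The 10 smooth muscle markers had the highest sum of these lists, and it was lower in each knockout (24616 to 29146 CPM) than in each control (29980 to 35994 CPM). Of them 8 had negative and 2 positive log2 fold changes. Acta2 (-0.04 ± 0.17) and Cnn1 (-0.02 ± 0.17) were nearly level, and Des was higher without overlap (0.61 ± 0.20, edgeR adjusted p = 0.124). Tagln had 4249 to 6345 CPM in controls and 2343 to 2869 CPM in knockouts. The sum was not computed without Tagln, so no drop of the whole list is read from it. Tagln was called lower (log2 fold change -1.14 ± 0.19, edgeR adjusted p = 0.0331). Its call was lost when any library but control replicate 2 was left out, with log2 fold changes of -1.29 to -1.03 over these fits. The sum of 6 adipocyte markers was also lower in each knockout (190 to 235 CPM) than in each control (251 to 333 CPM), with Ucp1 called lower (-2.45 ± 0.16, edgeR adjusted p = 0.0023). Ucp1 had 36.6 to 39.5 CPM in controls and 6.05 to 8.34 CPM in knockouts, and the sum was not computed without it. Of the 6, 5 had negative log2 fold changes, among them Adipoq (-0.23 ± 0.16) and Cidec (-0.08 ± 0.17). Lep, with at most 2.71 CPM in a library, had the opposite sign (1.55 ± 0.39, edgeR adjusted p = 0.0752). The part of these shifts in the group differences below was not tested.

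In that fit 557 genes were called at an adjusted p under 0.05, which is 3.45% of those tested, of which 306 (1.90%) were higher and 251 (1.56%) lower in the knockout. Leaving out 1 library moved these counts to between 4 and 491 higher and between 3 and 420 lower, with the most calls without control replicate 2 and the fewest without control replicate 1. Of the 9 genes, 8 had enough counts to be tested, and Tjp3 and Krt18 were called, both higher. DESeq2, which called 10.3% of the genes to which it gave an adjusted p, called Krt18 and gave Tjp3 no adjusted p, and limma with voom weights, with 4.73% called, called both. Krt8 did not reach the count filter. Tjp3 reached it through the knockout libraries alone, so it had to differ once it was kept. Knockout and control CPM did not overlap for 3 of the 8 tested genes, Tjp3 and Krt18 (higher) and Tjp1 (lower), beside 31.8% of all tested genes (16.9% higher, 14.8% lower). Since this contrast was known when the genes were chosen, nothing is read from those shares.

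**Figure D1:**
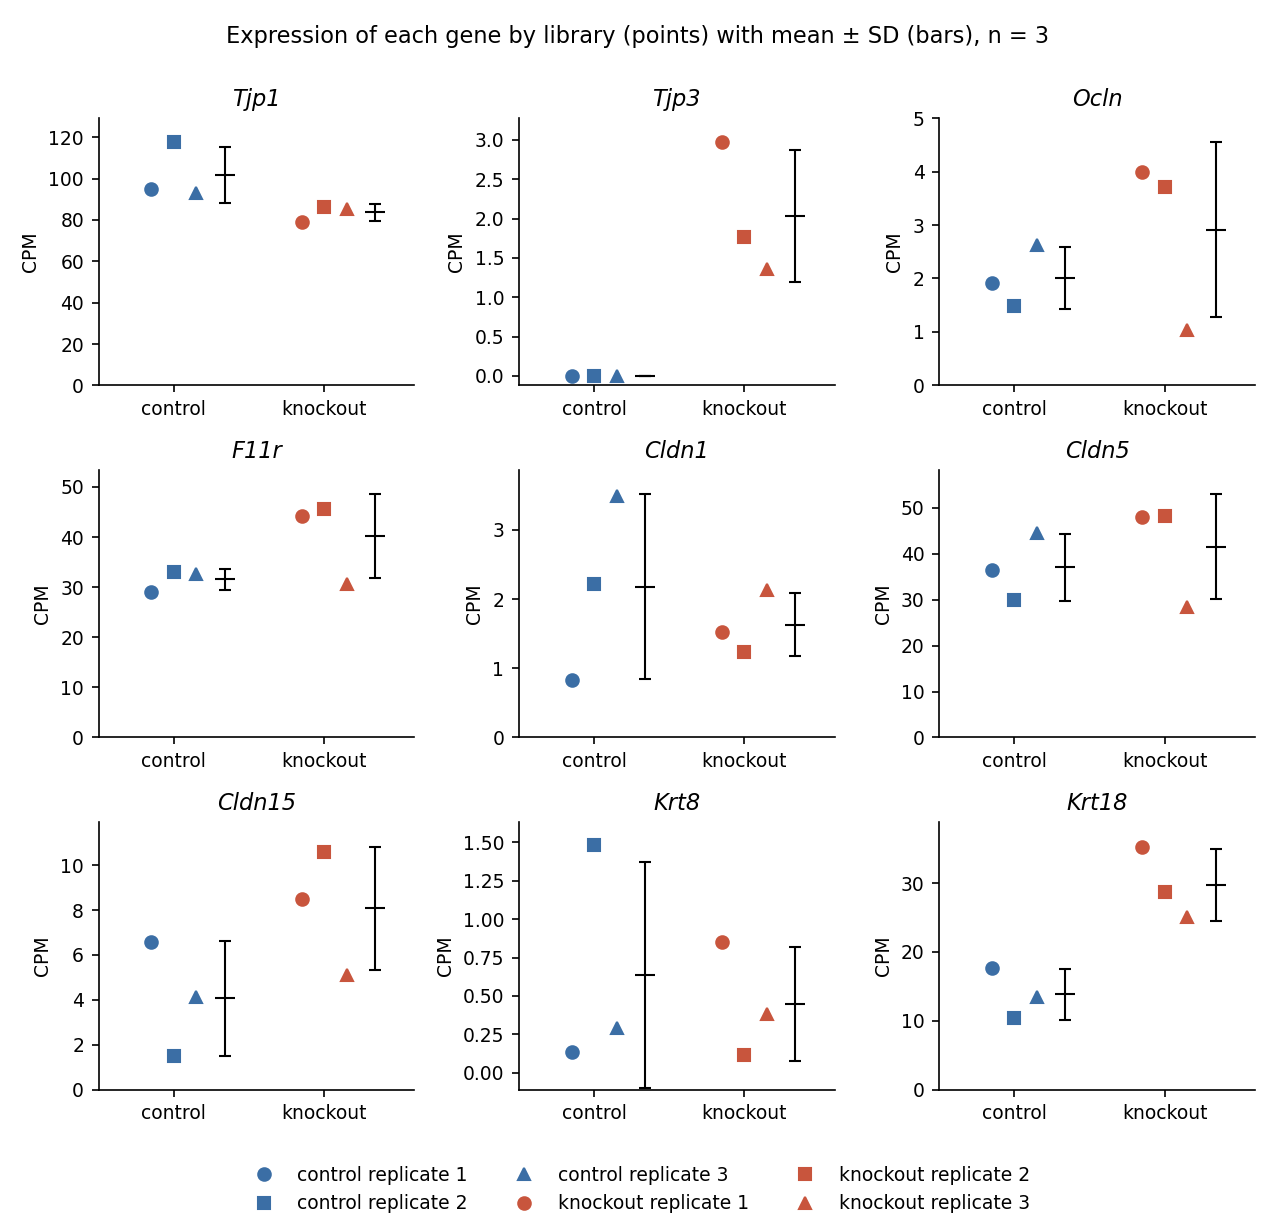
CPM of each of the 9 genes (vertical axes, 1 scale per gene) in the 3 control and 3 knockout libraries, with points for libraries and black bars for mean ± SD. Tjp3 is at 0 in all controls and between 1.36 and 2.98 CPM in knockouts, Krt18 lies at 10.4 to 17.7 CPM in controls and 25.1 to 35.3 CPM in knockouts, and the groups overlap for Ocln, F11r, Cldn1, Cldn5, Cldn15 and Krt8.

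The level per gene length, read from the deposited FPKM (fragments scaled to gene length and to library size), spanned a wide range among the 9 genes. In controls Cldn5 was first with 26.5 ± 7.36 FPKM (SD, n = 3). Krt18 (9.80 ± 3.31), Tjp1 (9.52 ± 0.249) and F11r (8.72 ± 0.764) followed with overlapping ranges and are not ordered among themselves. Cldn15 had 1.11 ± 0.745 FPKM, a range that overlapped with Krt8. Krt8 (0.302 ± 0.324), Cldn1 (0.296 ± 0.194) and Ocln (0.271 ± 0.0971) formed a low set with overlapping ranges, and Tjp3 was at 0. In knockouts Cldn5 (29.2 ± 7.73 FPKM) and Krt18 (20.6 ± 3.48) overlapped at the top. F11r (11.02 ± 2.20) and Tjp1 (7.82 ± 0.387) came next without overlap, then Cldn15 (2.10 ± 0.701). Tjp3 (0.402 ± 0.165), Ocln (0.382 ± 0.213), Krt8 (0.229 ± 0.188) and Cldn1 (0.22 ± 0.0636) overlapped each with the next. The lowest set thus held a scaffold, a claudin, occludin and a keratin, all with at most 63 counts in any library.

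**Figure D2:**
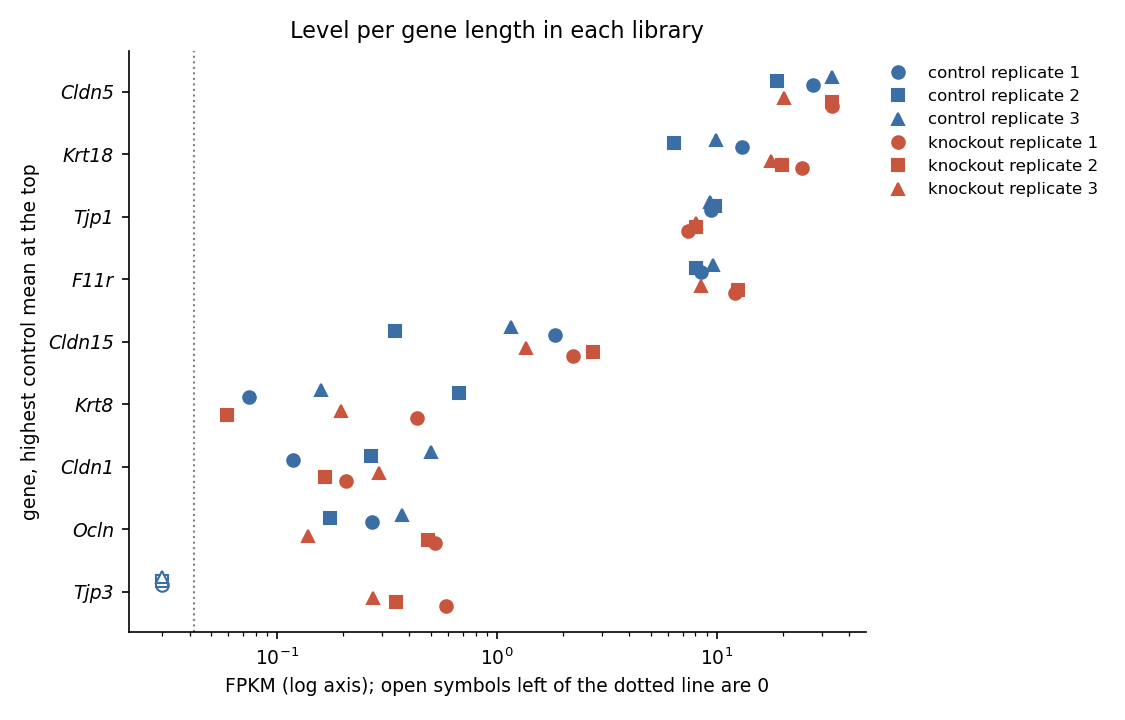
FPKM on a log axis for each gene and library, ordered by the control mean, with blue for controls, red for knockouts and open symbols for 0. Cldn5, Krt18, Tjp1 and F11r lie between 6.41 and 33.6 FPKM in all libraries, and Krt8, Cldn1, Ocln and Tjp3 lie at or below 0.672 FPKM.

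Among the scaffolds, Tjp3 encodes ZO-3, a ZO protein known mainly from epithelia (ENSMUSG00000034917, GRCm38 chromosome 10, 81273207 to 81291581, minus strand). It had 0 counts in each of the 3 control libraries and 35, 30 and 25 counts in knockout replicates 1 to 3. That is 2.98, 1.76 and 1.36 CPM in the knockouts, with a mean of 2.04 ± 0.841 CPM (SD, n = 3). All knockout libraries were above all controls, and knockout replicate 1 was the highest although it had the fewest total counts of its group. Against an upper limit of 3 counts over the whole control group (0.0968 CPM), the pooled knockout level of 1.91 CPM was 19.7-fold higher. The lowest knockout library, with 1.36 CPM, was 14.1-fold above the same limit. The limit covers counting error of the controls only, and neither counting error nor spread of the knockouts is in these folds.

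The bases just upstream of Tjp3 and Krt18 are shown because these are the 2 genes that were called, with those upstream of Krt8 as the partner of Krt18. They come from RefSeq's GRCm38.p6 table, which held an entry for all 9 genes, and stop before the first annotated base of the gene. They are written 5′ to 3′ on the gene's strand with matches to an E-box (CANNTG) and a CACCC box (CACCC, either strand) in capitals.
Tjp3, chr10:81291582-81291831, minus strand: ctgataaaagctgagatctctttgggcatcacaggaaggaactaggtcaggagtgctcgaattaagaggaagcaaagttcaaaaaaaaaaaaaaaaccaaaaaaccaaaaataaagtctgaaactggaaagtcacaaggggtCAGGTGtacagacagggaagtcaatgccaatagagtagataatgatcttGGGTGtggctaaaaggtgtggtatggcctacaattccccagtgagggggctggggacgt
Krt18, chr15:102027966-102028179, plus strand: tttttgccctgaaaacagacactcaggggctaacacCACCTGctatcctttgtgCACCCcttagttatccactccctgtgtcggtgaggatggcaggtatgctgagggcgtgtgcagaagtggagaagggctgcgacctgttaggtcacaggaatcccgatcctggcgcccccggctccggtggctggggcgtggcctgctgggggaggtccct
Krt8, chr15:102004483-102004592, minus strand: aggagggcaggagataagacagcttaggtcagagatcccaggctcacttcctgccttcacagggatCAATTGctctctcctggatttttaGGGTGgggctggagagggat

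Each of the 3 stretches held 1 E-box and 1 CACCC box. For comparison, windows of the same length were taken from the upstream end of all 32851 promoter entries. The shorter windows thus stop farther upstream of the RefSeq start. In the entries of Krt18 and Krt8, bases upstream of that start but inside the annotated gene were not searched. The windows held an E-box in 66.2% of promoters for the 250 bases of Tjp3, 61.3% for the 214 bases of Krt18 and 39.0% for the 110 bases of Krt8. The CACCC box was in 52%, 46.9% and 26.9% of such windows. On either strand the 3 stretches held no match to 4 further motifs. The letters GGGCGG of the GC box were in 11.6% to 32.7% of windows of these lengths over all promoters. For the TATA box, searched as TATAAA, the share was 5.63% to 12.4%. The AP-1 site, searched as TGANTCA, was in 2.79% to 6.75% of windows. For the M-CAT site, searched as CATTCC, the share was 5.89% to 12.6%. The stretches differed in base composition. Tjp3 had 43.2% G and C and 2 CpG (a median of 52.4% and 6 over all promoters), whereas Krt18 had 60.7% and 8 CpG (medians of 51.9% and 5). The matches are letters in these windows and no evidence that a factor binds.

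The last 40 bases of Tjp3 overlap the 3′ end of Apba3, which lies on the other strand. The strand setting of the counting is not given in the sources used here. Apba3, an adaptor protein gene, had 384, 110 and 343 counts in controls and 310, 425 and 413 in knockouts (log2 fold change -0.29 ± 0.20, edgeR adjusted p = 0.436). Tjp3 stood at 0 in the same control libraries, and whether Apba3 reads entered the Tjp3 counts was not tested. Pip5k1c, the lipid kinase gene on the upstream side, was not called either (0.18 ± 0.17, edgeR adjusted p = 0.574), nor were Mrpl54 (-0.17 ± 0.22, edgeR adjusted p = 0.694) and Matk (0.30 ± 0.41, edgeR adjusted p = 0.706) on the downstream side.

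Tjp1 encodes ZO-1, the scaffold that links claudins and occludin to actin (ENSMUSG00000030516, chromosome 7, 65296165 to 65527781). Controls had 95.1, 117.5 and 93.2 CPM and knockouts 79.1, 86.5 and 85.3 CPM. Every knockout library was below every control. The log2 fold change was -0.28 ± 0.13 (SE) and was not called. Control replicate 2, the library of low depth, was the highest, and without it the log2 fold change was -0.16 ± 0.09.

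Tjp1 exceeded Tjp3 in FPKM by 12.6-fold, 23.1-fold and 29.6-fold in knockout replicates 1 to 3. Where ZO-3 transcripts were found, they were thus few beside those of ZO-1.

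Of the membrane proteins, Cldn5 encodes the claudin of endothelial tight junctions (ENSMUSG00000041378, chromosome 16, 18776847 to 18778262). It had 36.5, 30.03 and 44.6 CPM in controls and 47.98, 48.2 and 28.5 CPM in knockouts. Knockout replicates 1 and 2 were above all controls and knockout replicate 3 was below all of them. The log2 fold change of 0.15 ± 0.24 averages over that split and was not called.

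F11r encodes junctional adhesion molecule A, an immunoglobulin-type contact protein of endothelium, epithelium and platelets (ENSMUSG00000038235, chromosome 1, 171437535 to 171464603). In replicates 1 to 3 it reached 29.1, 33.0 and 32.6 CPM among controls, against 44.2, 45.6 and 30.5 CPM among knockouts. The same knockout libraries, 1 and 2, were the high ones, and knockout replicate 3 lay inside the control range (log2 fold change 0.35 ± 0.18, not called).

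Ocln encodes occludin, a membrane protein concentrated at tight junctions (ENSMUSG00000021638, chromosome 13, 100496507 to 100552718). Its CPM were 1.92, 1.48 and 2.62 in controls and 3.998, 3.71 and 1.04 in knockouts, from 4 to 63 counts. Knockout replicates 1 and 2 were above all controls and knockout replicate 3 was the lowest of all 6 libraries (log2 fold change 0.46 ± 0.52, not called). Across the 6 libraries Ocln and Cldn5 were the pair of the 8 tested genes with the highest Pearson r of log2 CPM (0.98). The points share depth and tissue make-up, and the r is a description.

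The summed level of 13 endothelial markers divided the knockout libraries in the same way. The sum was 944, 1111 and 1080 CPM in controls and 1824, 1849 and 796 CPM in knockout replicates 1 to 3. Singly, 9 of the 13 were above all controls in knockout replicates 1 and 2 and lower in knockout replicate 3 than in those, and Emcn, Robo4, Erg and Kdr were not. All 13 were tested, 11 had positive and 2 negative log2 fold changes, with a median of 0.44 against -0.01 over all tested genes. EdgeR called 0 of them, 0 had an unadjusted p under 0.05, and DESeq2 and limma called 0. Pecam1, the adhesion molecule that lines endothelial contacts, had 361.6 ± 37.8 CPM in controls against 577.4 ± 234.4 CPM in knockouts (log2 fold change 0.67 ± 0.31, edgeR adjusted p = 0.249). The part of the endothelial marker level in the values of Cldn5, F11r, Ocln and Cldn15 was not tested.

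Per 100 CPM of the endothelial markers, Cldn5 stood at 3.87, 2.70 and 4.12 CPM in controls and 2.63, 2.61 and 3.57 CPM in knockouts. The same ratio for F11r was 3.08, 2.97 and 3.01 in controls and 2.43, 2.47 and 3.83 in knockouts. On this scale knockout replicates 1 and 2 were below all controls for both genes, the reverse of their place in CPM. For Cldn5 the margin was small, 2.63 and 2.61 against 2.70 in control replicate 2, the library of low depth. For F11r knockout replicate 3 was above all controls. The scale depends on the markers summed. Pecam1 (means of 361.6 CPM in controls and 577.4 in knockouts) and Vwf (249.6 and 343.4) weigh heavily in it. Erg, another of the markers, had 40.0, 46.3 and 46.7 CPM in controls and 44.1, 44.8 and 38.7 CPM in knockouts. Ratios to single markers were not computed, and no level per endothelial cell is read from this scale. For Ocln the ratio was 0.204, 0.133 and 0.242 in controls and 0.219, 0.200 and 0.130 in knockouts, and the groups overlapped.

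**Figure D3:**
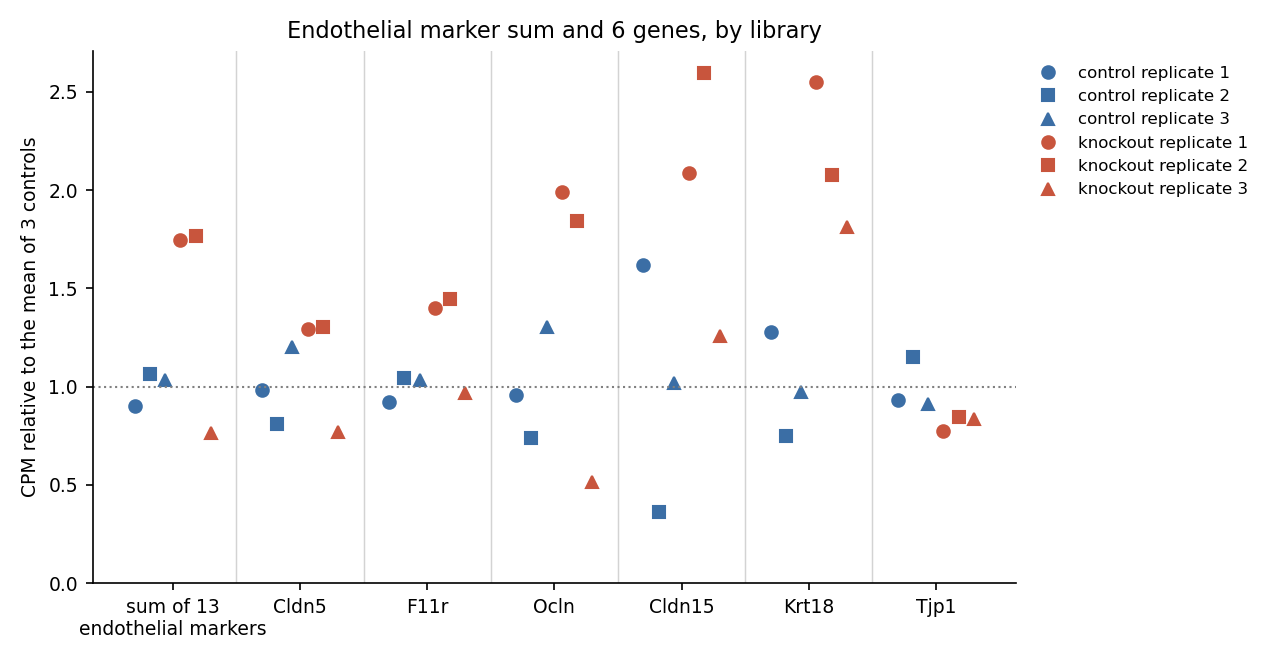
CPM relative to the mean of the 3 controls (dotted line at 1) for the sum of 13 endothelial markers and for 6 of the genes, with 1 point per library. For the marker sum, Cldn5, F11r, Ocln and Cldn15, knockout replicates 1 and 2 lie above the controls. Knockout replicate 3 (red triangle) lies below those 2 knockouts, while Krt18 is higher and Tjp1 lower in all 3 knockouts.

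Cldn1 and Cldn15 gave no separation of the groups. Cldn1, which encodes a claudin essential for the barrier of the skin (ENSMUSG00000022512, chromosome 16, 26356642 to 26371841), had 0.825, 2.22 and 3.49 CPM in controls and 1.53, 1.24 and 2.13 CPM in knockouts, from 6 to 48 counts. The controls spanned the knockouts entirely. Its log2 fold change of -0.40 ± 0.54 was not called and turned to 0.36 ± 0.58 without control replicate 3. Cldn15, whose protein forms cation pores in the intestine (ENSMUSG00000001739, chromosome 5, 136966616 to 136975858), had 6.60, 1.48 and 4.14 CPM in controls and 8.51, 10.6 and 5.13 CPM in knockouts. Knockout replicates 1 and 2 were above all controls, as for Cldn5, F11r and Ocln, and knockout replicate 3 lay below control replicate 1. The log2 fold change of 0.84 ± 0.44 was not called. Control replicate 2, with 4 counts, was the lowest, and without it the log2 fold change was 0.59 ± 0.36.

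Krt18 encodes the type I keratin of simple epithelia (ENSMUSG00000023043, chromosome 15, 102028180 to 102032027). Controls had 17.7, 10.4 and 13.4 CPM, from 257, 28 and 185 counts, and knockouts had 35.3, 28.8 and 25.1 CPM, from 415, 489 and 460 counts. Every knockout library was above every control, and the nearest were knockout replicate 3 and control replicate 1. The means were 13.8 ± 3.66 and 29.7 ± 5.18 CPM (SD, n = 3), a ratio of 2.15, and the log2 fold change was 1.06 ± 0.22. Dropping control replicate 2 kept the call of Krt18 (0.94 ± 0.19), and dropping each of the other 5 libraries ended it, with log2 fold changes between 0.94 and 1.27. The call of Tjp3 was kept and lost in the same fits.

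Krt8 encodes the type II partner of keratin 18 (ENSMUSG00000049382, chromosome 15, 101996698 to 102004482). It had 2, 4 and 4 counts in controls and 10, 2 and 7 in knockouts, or 0.137, 1.48 and 0.291 CPM against 0.851, 0.118 and 0.382 CPM. The groups overlapped, and at this depth a difference was not detectable (log2 fold change 0.03 ± 0.86 in a fit without the count filter). The genes lie 23697 bases apart on chromosome 15 and point away from each other. Krt18 exceeded Krt8 in FPKM by 175.1-fold, 9.54-fold and 63.02-fold in controls and 56.5-fold, 333.1-fold and 89.5-fold in knockouts. The span is wide because Krt8 rests on 10 counts or fewer in each library. The annotated pseudogene Krt8-ps had 0 or 1 count per library, and Gm36026, a noncoding gene that overlaps 271 bases of Krt8, had 0 in all 6. The other simple keratins were as low as Krt8 or close to it. Krt7, the 1 tested of 4, lay between 1.09 and 2.13 CPM (its log2 fold change was 0.07 ± 0.42, edgeR adjusted p = 0.964), and Krt19, Krt20 and Krt23 had at most 0.742 CPM in any library.

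Simple keratins are best known from epithelium and mesothelium, and markers of both were measured beside them. Of 10 mesothelium genes 3 were tested (Nkain4, Rspo1 and Gpm6a), with 2 positive and 1 negative log2 fold changes. EdgeR, DESeq2 and limma called 0 of the 3, and 1 had an unadjusted p under 0.05 (Nkain4, log2 fold change 0.88 ± 0.34, edgeR adjusted p = 0.182), beside 22.7% of all tested genes. The defining markers Msln and Upk3b had at most 1.15 and 1.47 CPM, both in knockout replicate 3, and Wt1 and Bnc1 had at most 2 counts in any library. The list's sum was 8.52 to 9.64 CPM in controls and 7.91, 10.5 and 16.5 CPM in knockout replicates 1 to 3.

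Of 11 epithelium genes 3 were tested (Cldn3, Esrp2 and St14), all with positive log2 fold changes and a median of 1.17, beside -0.01 over all tested genes. EdgeR and limma called 0 of them and DESeq2 called Cldn3. The edgeR unadjusted p was under 0.05 for 2 of the 3, Cldn3 and Esrp2, beside 22.7% of all tested genes. Esrp2, a splicing factor of epithelial cells, had 0.275, 0.742 and 0.436 CPM in controls and 1.19, 0.882 and 0.927 CPM in knockouts. It was tested only through the knockouts, since no control reached the count filter, so it had to differ once kept. Ovol1 and Spint1 had counts in knockouts only, at most 4 and 5 in a library. Cldn4 had 1 count in each control and, among knockouts, 1 in replicate 3 only. The only count of Elf3 was in control replicate 2. Cldn7 had 3, 0 and 4 counts in controls and 3, 5 and 11 in knockouts. Epcam and Esrp1 had 0 counts throughout and Grhl2 at most 1. The epithelial sum was 6.32 to 7.79 CPM in controls and 21.2, 10.9 and 11.9 CPM in knockout replicates 1 to 3, and was made up mostly of Cldn3, which is also counted among the claudins below. The part of these cell types in the Krt18 and Tjp3 values was not tested.

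The other tight junction genes gave no calls in edgeR's fit. Of 52 such genes, 30 were tested, 13 with positive and 17 with negative log2 fold changes. Their median was -0.05, beside -0.01 over all tested genes. EdgeR and limma called 0, 8 had an unadjusted p under 0.05 (4 in each direction, Marveld3 among the higher, beside 22.7% of all tested genes), and DESeq2 called Cldn3 higher and Mpdz lower.

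Of 20 other claudin genes, 5 were tested and 6 had 0 counts in all libraries. Cldn3, which encodes a sealing claudin of epithelia, had 4.76 ± 0.269 CPM in controls against 10.9 ± 4.48 CPM in knockouts, with no overlap (SD, n = 3; log2 fold change 1.17 ± 0.31, edgeR adjusted p = 0.0792). It did not pass the threshold. The most abundant by CPM, Cldn12, had a log2 fold change of -0.16 ± 0.23 (edgeR adjusted p = 0.713). Of 11 other membrane protein genes, 6 were tested. Marveld3, a relative of occludin, had 0.137, 0 and 0.509 CPM in controls and 1.70, 1.94 and 0.763 CPM in knockouts. It reached the count filter through the knockouts alone, so it had to differ once kept. Jam3 (log2 fold change 0.20 ± 0.13, edgeR adjusted p = 0.421) and the endothelial adhesion gene Esam (0.16 ± 0.20, edgeR adjusted p = 0.669) were not called.

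Of 21 scaffold and polarity genes, 19 were tested, with a median log2 fold change of -0.07. The smallest unadjusted p belonged to Mpdz, which encodes a protein with many PDZ domains (120.2 ± 23.7 CPM in controls and 80.8 ± 7.42 CPM in knockouts, log2 fold change -0.57 ± 0.17, edgeR adjusted p = 0.104). Pard3b (-0.73 ± 0.24, edgeR adjusted p = 0.133) and Prkci (-0.35 ± 0.12, edgeR adjusted p = 0.136), genes of the PAR polarity complex, likewise did not overlap between groups, with lower values in the knockouts, and were not called. Sympk, a protein of tight junction plaques and of RNA 3′ end processing, had the opposite sign (0.41 ± 0.15, edgeR adjusted p = 0.162).

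**Figure D4:**
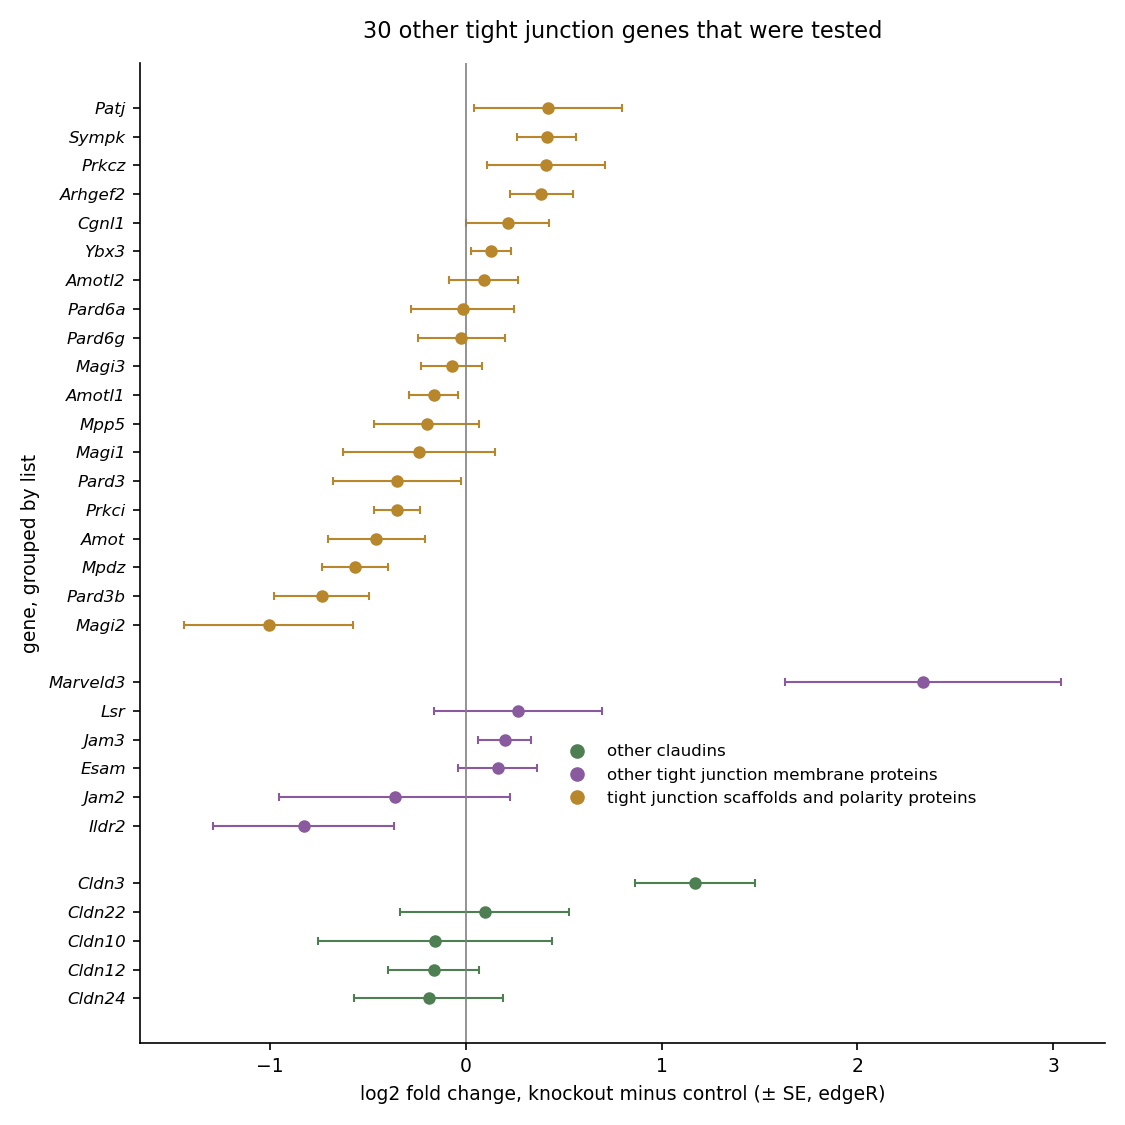
Log2 fold change (horizontal axis, knockout minus control) with its standard error for the 30 tested genes of the other tight junction lists, coloured by list. None of the 30 was called by edgeR, and the values lie on both sides of 0, from -1.01 for Magi2 to 2.33 for Marveld3, which was tested only through the knockouts.

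Genes of the contacts next to tight junctions, and of the keratin anchors, gave 1 call. Of 13 adherens junction genes 11 were tested, and Nectin2, an adhesion molecule that recruits afadin to cell contacts, was higher in the knockout (means of 9.69 ± 0.287 and 16.6 ± 1.95 CPM; log2 fold change of 0.78 ± 0.15 and edgeR adjusted p = 0.0431). Dropping control replicate 2 kept this call, and dropping each of the other 5 libraries ended it (edgeR adjusted p = 0.0856 to 0.197), with log2 fold changes of 0.69 to 0.84 over the 6 fits. Its relatives Nectin1 (0.66 ± 0.22, edgeR adjusted p = 0.144) and Nectin3 (0.44 ± 0.18, edgeR adjusted p = 0.203) had the same sign and were not called, and the list's median was -0.02. Of 16 desmosome and cytolinker genes, which link keratin and other intermediate filaments to the membrane, 8 were tested and edgeR called 0. Dsp, the gene of desmoplakin, had 248.9 ± 38.9 CPM in controls against 140.7 ± 28.4 CPM in knockouts (log2 fold change -0.82 ± 0.19, edgeR adjusted p = 0.06). Jup, the gene of plakoglobin, had 96.7 ± 4.42 and 70.6 ± 5.26 CPM (-0.45 ± 0.11, edgeR adjusted p = 0.0705). Neither Dsp nor Jup overlapped between groups. Perp, the gene of a desmosomal membrane protein, had the opposite sign, with 82.0 ± 17.5 and 116.6 ± 12.03 CPM and no overlap (0.50 ± 0.18, edgeR adjusted p = 0.152). In this list 4 genes had an unadjusted p under 0.05 (1 higher and 3 lower, beside 22.7% of all tested genes), DESeq2 called Dsp, Jup and Pkp4 lower, and limma called 1. Of 11 keratins of stratified epithelia 2 were tested, with 0 called by edgeR, DESeq2 and limma and 0 at an unadjusted p under 0.05, and their sum was at most 8.08 CPM.

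The gene most like each of the 8 tested genes, by Pearson r of log2 CPM over the 6 libraries among genes with a mean of at least 1 CPM, was Zeb1 for Tjp1 (r = 0.998), Lpcat4 for Tjp3 (0.999), Npr1 for Krt18 (0.998) and Mitd1 for Cldn15 (0.997). It was Sphk1 for Cldn5 (0.994), H2-K1 for F11r (0.992), Cracr2b for Ocln (0.989) and Ednrb for Cldn1 (0.969). Next came Zscan20 for Tjp1, Zfp598 for Tjp3, Pold1 for Krt18, Prpf6 for Cldn15, Gpt for Cldn5, Sigirr for F11r, Fntb for Ocln and Pnpla7 for Cldn1. These are the best matches among very many genes over 6 points that share tissue and depth, and the r is a description only. Among the 8 genes themselves, Tjp3 and Krt18 had r = 0.93 and Tjp1 and Krt18 r = -0.92, pairs in which neither gene overlaps between groups. Tjp1 and Tjp3, also without overlap, had r = -0.80. Tjp1 and Cldn15 had r = -0.88, although the groups overlap for Cldn15.

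**Figure D5:**
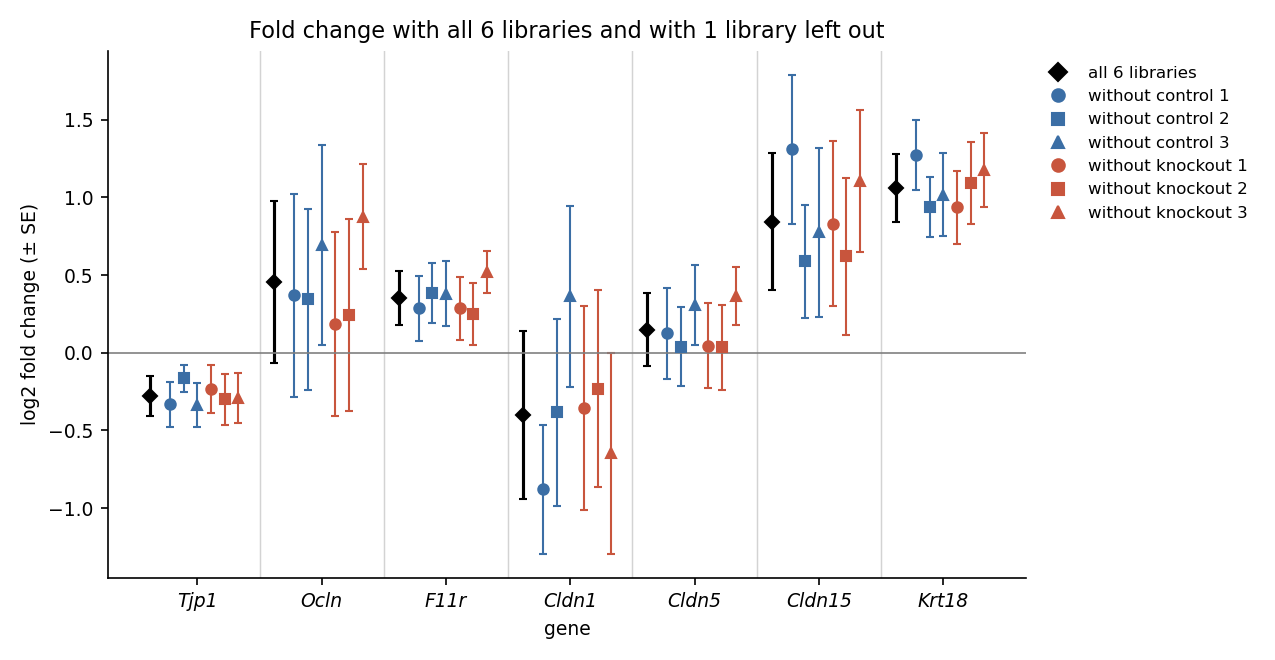
Log2 fold change with its standard error (vertical axis) for 7 of the genes, with all 6 libraries (black diamond) and with each library left out in turn. Krt18 stays between 0.94 and 1.27 and Tjp1 between -0.34 and -0.16, Ocln and Cldn5 are highest without knockout replicate 3 (0.88 and 0.37), and Cldn1 crosses 0 without control replicate 3.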

How the data were processed

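RNA-seq libraries of whole mouse aorta (3 control, 3 knockout) were grouped by genotype label and sample title. Per the submitters' processing notes, CASAVA 1.8, HISAT2, SAMtools 1.3.1 and edgeR were used. For the counting program, annotation and strand, the sources used here give nothing. The table that the authors deposited holds counts of reads and FPKM for 55487 genes in every library, per the file headers. Of 55141 identifiers shared with GENCODE M21 (GRCm38), 99.4% had identical positions, so coordinates are GRCm38, although the notes name GRCm39.

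Counts were analysed in R 4.3.3 with edgeR 4.0.16: filterByExpr by group (16139 genes left), TMM scaling, glmQLFit with robust estimation, glmQLFTest and Benjamini-Hochberg adjustment over all tested genes, with a threshold of 0.05. Standard errors were taken as |log2 fold change| over the root of the F statistic. FPKM were used for levels between genes only. Alternatives were RLE scaling, no filter, DESeq2 1.42.0, limma 3.58.1 (voom), the replicate number as a block, and leaving out each library. The steps were tested on simulated counts. P-values set the group difference against the spread between these libraries, and that spread may be technical. Libraries of a group differed beyond counting error (mean chi-square per gene at least 15.5).

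The 9 genes and the 16 gene lists (170 entries) were chosen with earlier results of these data known, and 1 gene is left out of the lists and not reported here. Cldn3, Cldn4, Cldn7, Cldn19 and Cdh5 stand in 2 lists each. Named were the 9 genes, Ogt, up to 4 members of a list with the smallest unadjusted p and any called, the genes most alike over libraries, and neighbours or pseudogenes of the 9. Cldn12 and other list members were named after their values were seen. Lists were described by counts and medians, with no set test. Promoter bases are from RefSeq (GRCm38.p6).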

Additional observations from a re-analysis of the deposited data

How the results depend on the processing

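The calls rested on few libraries. Over the whole table, where 306 genes were called higher and 251 lower, DESeq2 called 759 and 742, and the fit with the replicate block 18 and 10. Leaving out 1 library gave 4 to 491 higher and 3 to 420 lower. Among the other tight junction genes (0 and 0), DESeq2 called 1 higher and 1 lower. Among keratin, desmosome and adherens junction genes (1 higher, 0 lower), DESeq2 called 3 lower and limma with voom weights 1 lower, the block left 0 higher, and leaving out 1 library gave 0 to 2 higher. Among cell type markers (0 higher, 2 lower), DESeq2 called 2 higher and 5 lower, the block left 1 lower, and leaving out 1 library gave 0 to 1 higher and 1 to 3 lower. The cause was not tested.

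Tjp3 and Krt18 lost their calls with the block and without any single library other than control replicate 2. The log2 fold change of Krt18 was 1.09 with the block and 0.94 to 1.27 over the fits that leave out a library, and Tjp3 stood at 0 counts in every control. The log2 fold change of Cldn1 ran from -0.88 to 0.36 and changed sign, at 0.36, without control replicate 3. None of the 6 tested genes that were not called became called. Deviations from the group mean correlated at 0.05, 0.09 and -0.06 for same-numbered libraries and at -0.10 to 0.10 for differently numbered ones. With so few libraries, these values cannot tell whether the replicate numbers pair them. RLE scaling kept every call count within 1.5 times. Depth limits the low genes: Krt8 had 2 to 10 counts per library, and in control replicate 2 Ocln and Cldn15 had 4 counts each and Krt18 had 28.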
